A study of Mus musculus with 8 samples.

Results

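The genes of the piRNA pathway and of the germ granules were examined in adult mouse testis, as a set of 33 named genes. Each was matched to its row of the count table through its Ensembl identifier, and all 33 had a row among the 56748 genes of the table. The genes were named for their function, and the rule that picks their rows uses no measured value. Transcripts were counted by RNA sequencing in 4 libraries of wild-type testis (labelled WT) and 4 libraries of testis labelled Ssty2-/-. Ssty2 is a repeated gene of the mouse Y chromosome long arm, and the series title says that Ssty2 repeats were deleted. Beyond adult, no age is stated, and neither is the strain or how the deletion was made. Nothing in the labels says that each library is its own animal, and the p-values therefore describe the spread among these 8 libraries, part of which may be technical.

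PIWI-interacting RNAs, or piRNAs, are small RNAs of the germline that guide PIWI proteins to transposon transcripts and, in meiotic and haploid male germ cells, to other transcripts. Long precursor transcripts are cut at the surface of mitochondria, loaded onto PIWI proteins, trimmed at their 3′ end and methylated there. Many of these proteins gather in granules without a membrane, the intermitochondrial cement of spermatocytes and the chromatoid body of round spermatids, in which Tudor domain proteins bind methylated arginines of the PIWI proteins. Transposon silencing by DNA methylation takes place mainly in fetal germ cells, while the adult testis makes the abundant pachytene piRNAs.

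Wild-type libraries held 18763650 to 24415587 counts and knockout libraries 18036708 to 22639737. The row named Ssty2 had 56, 78, 83 and 45 counts in wild type and 0 in each knockout library. It is a single row for a repeated gene, and how reads shared by its copies were counted is not given. These counts are therefore not the full level of Ssty2, and 0 does not show that every copy is gone. The defining markers of testis were present: every gene of the spermatid, Sertoli cell and Leydig cell lists had counts, and Ddx4, the germ cell helicase among the 33, lay between 532 and 619 CPM in all 8 libraries. Levels are in CPM, counts scaled to a common library size with TMM factors (edgeR's trimmed mean of M-values), and are given per library or as mean ± SD with n = 4 per group. In bulk testis, fewer cells of a type and less RNA per cell cannot be told apart.

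The set split in direction. All 33 genes passed the filter on low counts. Of them 8 were higher in knockout, 11 were lower and 14 did not pass (quasi-likelihood test of edgeR, with p adjusted by Benjamini-Hochberg over all tested genes and a threshold of 0.05). Over all 21952 tested genes, 26.2% were called higher, 27.4% lower and 53.5% in either direction, so the share of these genes that changed was near the background. The groups did not overlap for 20 of the 33, against 46.7% of all tested genes. The changes were small: the median size was 0.23 on the log2 scale against 0.35 over all tested genes, and Piwil4, a gene at a very low level, was the 1 member that reached 2-fold, against 7.97% of all tested genes. All tested genes cover every level above the filter, and genes at levels like those of the set were not compared. The median log2 fold change of the set was -0.063 and that of all tested genes -0.0089.

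By role, all 3 genes of the GTSF group were higher and 3 of 4 genes of precursor selection and cutting were lower. None of the 3 genes of 3′ trimming and methylation passed, nor did either gene of arginine methylation. The 9 Tudor domain genes divided into 3 higher, 3 lower and 3 that did not pass. Without TMM scaling, by library totals alone, 5 members were called higher and 17 lower, or 22.7% of the calls higher against 42.1%, while the median of all genes moved to -0.15 on the log2 scale. With upper-quartile factors the split went the other way, to 9 higher and 9 lower. The calls that ended by library totals were the rises of Tdrd3, Tdrd7 and Mael, whose values relative to that median were 0.19, 0.24 and 0.24. The 6 falls gained there were those of Pld6, Tdrkh, Tdrd1, Prmt5, Wdr77 and Dnmt3c. The cell types of the testis are not sorted here, and in the same libraries all 12 round spermatid markers rose while 9 of 12 spermatogonial markers fell. What part these shifts have in the values below was not tested.

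**Figure D1:**
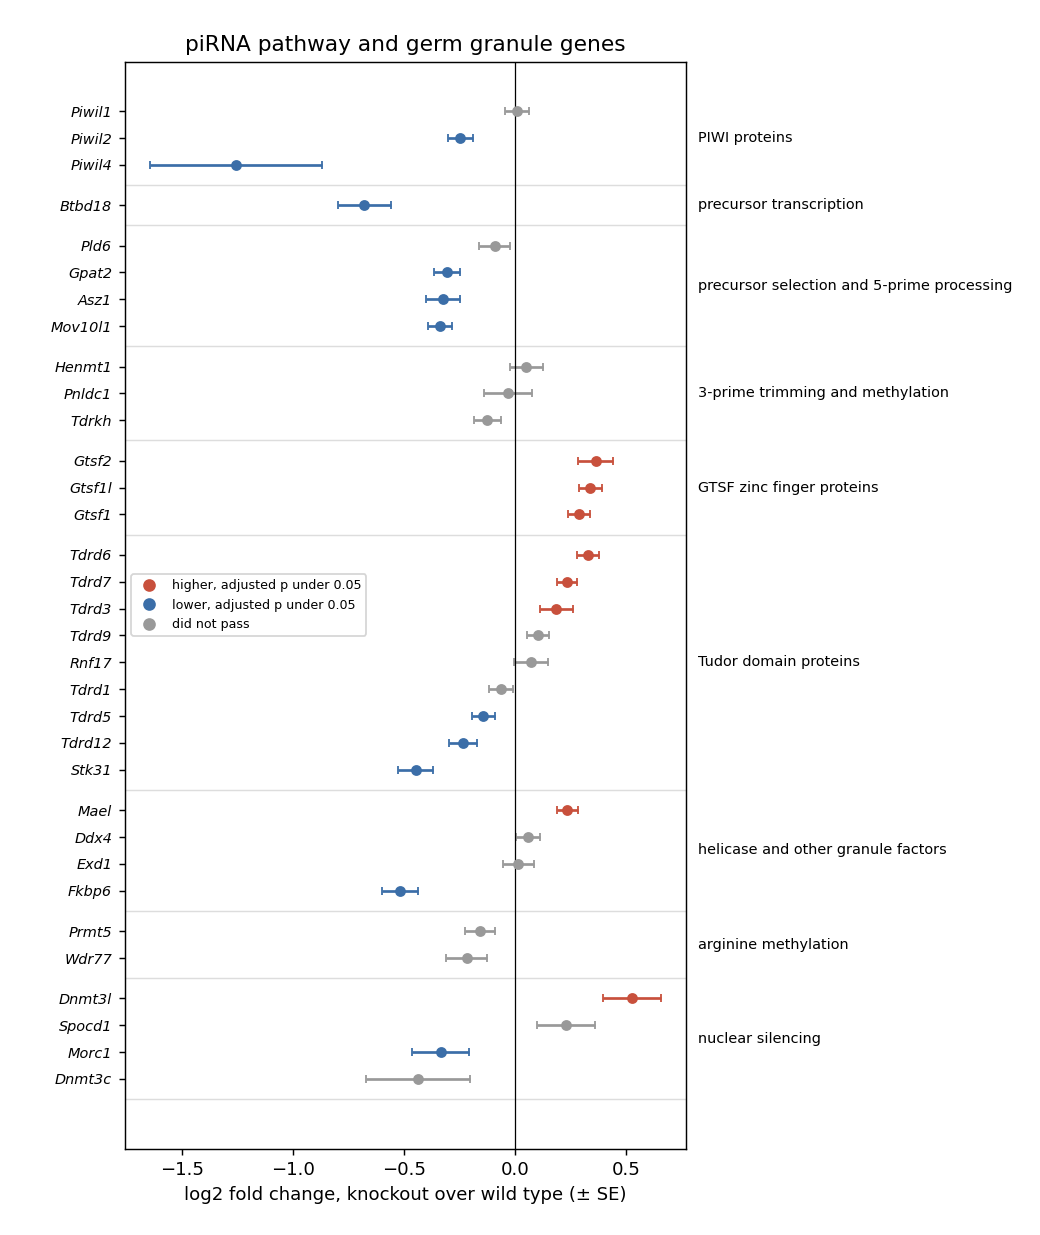
Log2 fold change of each of the 33 genes, knockout over wild type, with its standard error as a horizontal line, grouped by role and coloured by call. The 3 GTSF genes lie to the right of 0 and the called genes of precursor processing to the left, while the Tudor domain genes lie on both sides.

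Among the PIWI genes, Piwil2 fell and Piwil1 did not pass. Piwil1 encodes MIWI, the PIWI protein of pachytene spermatocytes and round spermatids. Its wild-type libraries held 474, 464, 431 and 438 CPM and its knockout libraries 448, 422, 488 and 462 CPM. The groups overlapped, with a change of 0.01 on the log2 scale (SE 0.0548, adjusted p = 0.891). Piwil2 encodes MILI, which acts from fetal germ cells through meiosis to round spermatids. It had 207, 233, 212 and 207 CPM in wild type and 171, 174, 193 and 185 CPM in knockout. Every knockout library lay below every wild-type library, with a change of -0.25 on the log2 scale (SE 0.0573, adjusted p = 0.00177). Piwil4 encodes MIWI2, the nuclear PIWI protein of fetal germ cells. The wild-type libraries held 16, 25, 38 and 33 counts of it, and the knockout libraries 11, 21, 4 and 5. That is 0.824, 1.09, 1.48 and 1.59 CPM against 0.591, 0.986, 0.189 and 0.291 CPM. Knockout replicate 2 lay above wild-type replicate 1, so the groups overlapped, and the gene passed with a change of -1.26 on the log2 scale (SE 0.388, adjusted p = 0.012). The size depended on single libraries, at -0.96 without knockout replicate 3, which is under 2-fold, and -1.81 without knockout replicate 2.

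Btbd18, which encodes a nuclear protein needed for transcription of pachytene piRNA precursors, showed a larger fall than any other member except Piwil4. Wild-type libraries had 9.88, 9.45, 8.65 and 7.65 CPM and knockout libraries 5.37, 5.73, 5.63 and 5.47 CPM. The knockout values lay close together, all below the lowest wild-type value, and the gene had a change of -0.68 on the log2 scale (SE 0.119, adjusted p = 0.000172).

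Genes for selection and cutting of precursors fell, apart from Pld6. Mov10l1 encodes the RNA helicase that binds precursor transcripts and passes them to the nuclease. It stood at 132, 140.4, 129 and 133 CPM in wild type and 111, 101, 103 and 107 CPM in knockout. The groups were well apart, with a change of -0.34 on the log2 scale (SE 0.0541, adjusted p = 7.18e-05). Gpat2, a gene for a mitochondrial outer membrane protein needed for piRNA production, had 87.4, 80.8, 83.3 and 83.9 CPM against 70.9, 63.4, 70.7 and 66.4 CPM and a change of -0.31 on the log2 scale (SE 0.0584, adjusted p = 0.000363). Asz1, which encodes the mitochondrial scaffold GASZ, had 34.9, 40.8, 38.9 and 36.0 CPM against 29.3, 29.0, 28.4 and 33.8 CPM and a change of -0.33 on the log2 scale (SE 0.0773, adjusted p = 0.00212). Neither gene overlapped between the groups, though knockout replicate 4 of Asz1 lay nearer to the lowest wild-type library than to the other knockout libraries. Pld6 encodes the mitochondrial endonuclease that cuts the precursors. It had 60.1 ± 5.38 CPM in wild type and 56.4 ± 3.03 CPM in knockout, the groups overlapped, and its change of -0.092 on the log2 scale (SE 0.0708, adjusted p = 0.285) did not pass.

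Genes that finish the 3′ end of piRNAs did not pass in either direction. Pnldc1, the gene for the trimming exonuclease, had 11.3 ± 1.504 CPM in wild type and 11.1 ± 0.64 CPM in knockout, with a change of -0.034 on the log2 scale (SE 0.108, adjusted p = 0.813). Henmt1, the gene for the methyltransferase that protects the trimmed end, had 23.9 ± 1.43 CPM in wild type and 24.7 ± 1.15 CPM in knockout, with a change of 0.05 on the log2 scale (SE 0.0745, adjusted p = 0.593). Tdrkh encodes a mitochondrial Tudor protein that brings PIWI proteins to the trimming exonuclease. Its knockout values of 39.1, 40.2, 38.9 and 38.5 CPM lay just below its wild-type values of 44.3, 43.4, 41.9 and 41.4 CPM without overlap, and its change of -0.12 on the log2 scale (SE 0.0611, adjusted p = 0.0958) did not pass. In the annotation, 36.7% of the exonic length of Tdrkh lies opposite Oaz3, an abundant spermatid gene that had 918 ± 37.2 CPM in wild type and 1383 ± 56.8 CPM in knockout. Likewise 14.7% of Henmt1 lies opposite another gene model. Whether the counting kept the strand is not given, so reads of such partners cannot be told apart.

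All 3 GTSF genes rose, by 0.29 to 0.36 on the log2 scale. They encode small proteins with paired zinc fingers, of which GTSF1 is known to bind PIWI proteins and speed their cutting of target RNA. Gtsf1 had 244, 229.6, 244 and 241 CPM in wild type and 309, 293, 285 and 285 CPM in knockout, with a change of 0.29 on the log2 scale (SE 0.0498, adjusted p = 0.000146). Gtsf1l had 263, 236, 257 and 252 CPM against 332, 304, 319 and 321 CPM, with a change of 0.34 on the log2 scale (SE 0.0517, adjusted p = 4.70e-05). Gtsf2 had 59.3, 63.4, 77.4 and 76.4 CPM against 85.4, 87.3, 88.5 and 94.95 CPM, with a change of 0.36 on the log2 scale (SE 0.0798, adjusted p = 0.00115). In each case the lowest knockout library was above the highest wild-type library, and the 3 calls held in all 15 alternatives. Wild-type replicates 1 and 2 of Gtsf2 lay below replicates 3 and 4. Its wild-type SD was 13.2% of its mean, against 2.91% for Gtsf1 and 4.60% for Gtsf1l. For Gtsf1l, 13.5% of the 31-base words of its transcripts also occur in transcripts of other genes, so its count is less certain.

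Because these 3 genes moved together, the 250 bases before their RefSeq start sites are printed here, beside those of 2 genes that fell, Btbd18 and Mov10l1, and of Piwil1, which did not pass. The letters come from RefSeq on build GRCm38.p6, which is not the build named for the counts. They run 5′ to 3′ on the strand of the gene. Capitals mark matches, on either strand, to a MYB site, searched as CAACTG with T also allowed as the first letter and G as the fifth. MYBL1, or A-MYB, is the transcription factor known to drive pachytene piRNA precursors and many piRNA pathway genes in meiosis.
Gtsf1: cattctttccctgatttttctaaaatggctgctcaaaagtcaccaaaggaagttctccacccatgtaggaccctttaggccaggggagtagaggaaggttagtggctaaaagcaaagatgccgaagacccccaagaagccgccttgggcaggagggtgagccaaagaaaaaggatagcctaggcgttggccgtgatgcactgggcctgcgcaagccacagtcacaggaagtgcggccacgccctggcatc
Gtsf1l: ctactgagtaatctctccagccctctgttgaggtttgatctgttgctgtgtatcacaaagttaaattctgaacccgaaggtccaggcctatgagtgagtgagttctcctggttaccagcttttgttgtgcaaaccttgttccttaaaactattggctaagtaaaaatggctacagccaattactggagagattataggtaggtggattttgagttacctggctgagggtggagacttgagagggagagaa
Gtsf2: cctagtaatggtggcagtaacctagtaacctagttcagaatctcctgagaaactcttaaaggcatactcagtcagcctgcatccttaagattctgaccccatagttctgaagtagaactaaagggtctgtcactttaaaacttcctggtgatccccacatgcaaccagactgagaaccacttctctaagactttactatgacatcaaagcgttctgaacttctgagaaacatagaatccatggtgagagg
Btbd18: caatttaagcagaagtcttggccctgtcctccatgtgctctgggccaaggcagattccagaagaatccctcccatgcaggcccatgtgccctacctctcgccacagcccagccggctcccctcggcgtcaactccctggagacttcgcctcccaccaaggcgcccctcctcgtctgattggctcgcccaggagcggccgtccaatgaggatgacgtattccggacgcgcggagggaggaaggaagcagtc
Mov10l1: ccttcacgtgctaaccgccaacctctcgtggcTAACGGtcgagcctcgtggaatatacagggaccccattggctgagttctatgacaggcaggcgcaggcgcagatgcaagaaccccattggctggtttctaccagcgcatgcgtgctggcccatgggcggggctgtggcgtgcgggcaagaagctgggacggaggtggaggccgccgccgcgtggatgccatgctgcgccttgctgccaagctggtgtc
Piwil1: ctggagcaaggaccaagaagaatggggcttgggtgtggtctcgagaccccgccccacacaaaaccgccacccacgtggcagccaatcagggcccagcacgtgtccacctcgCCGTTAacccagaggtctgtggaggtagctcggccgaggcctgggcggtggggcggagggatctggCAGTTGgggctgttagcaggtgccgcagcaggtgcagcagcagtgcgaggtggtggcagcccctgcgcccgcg

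The windows lie at chr15:103430428-103430677 on the minus strand for Gtsf1, at chr2:163089602-163089851 on the minus strand for Gtsf1l and at chr15:103448460-103448709 on the minus strand for Gtsf2. Btbd18 is at chr2:84658829-84659078 on the plus strand, Mov10l1 at chr15:88982744-88982993 on the plus strand and Piwil1 at chr5:128735996-128736245 on the plus strand. Piwil1 holds 2 matches and Mov10l1 holds 1, and these letters are not in the windows of the GTSF genes or Btbd18. The windows of Gtsf1l and Gtsf2 each hold 1 CpG and that of Gtsf1 holds 7, against 15 for Btbd18, 19 for Mov10l1 and 16 for Piwil1. These printed genes were picked after the values were seen, and the contrast did not extend to the set. Windows of genes that rose held from 1 CpG to 32 (Tdrd3). Those of genes that fell held from 0 (a window of Piwil4) to 40 (Tdrd5). A window was found for 26 of the 33 genes, some with several start sites, which made 37 windows. The MYB site was in 27.0% of these 37 windows and in 23.7% of all 32851 windows of this length. The windows of Tdrd12 overlap and hold the same match, which the share of windows counts more than once. By gene, the site was in at least 1 window of 1 of 7 higher genes, 4 of 9 lower genes and 3 of 10 that did not pass. Genes with several windows have more chances of a match, and no share by gene was made over all genes. The cAMP response element TGACGTCA, searched on both strands, was in none of the 37 windows and in 1.55% of all windows. The median CpG count was 15 in the windows of the set and 6 in all windows. A match is a run of letters and not a measured binding site.

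**Figure D2:**
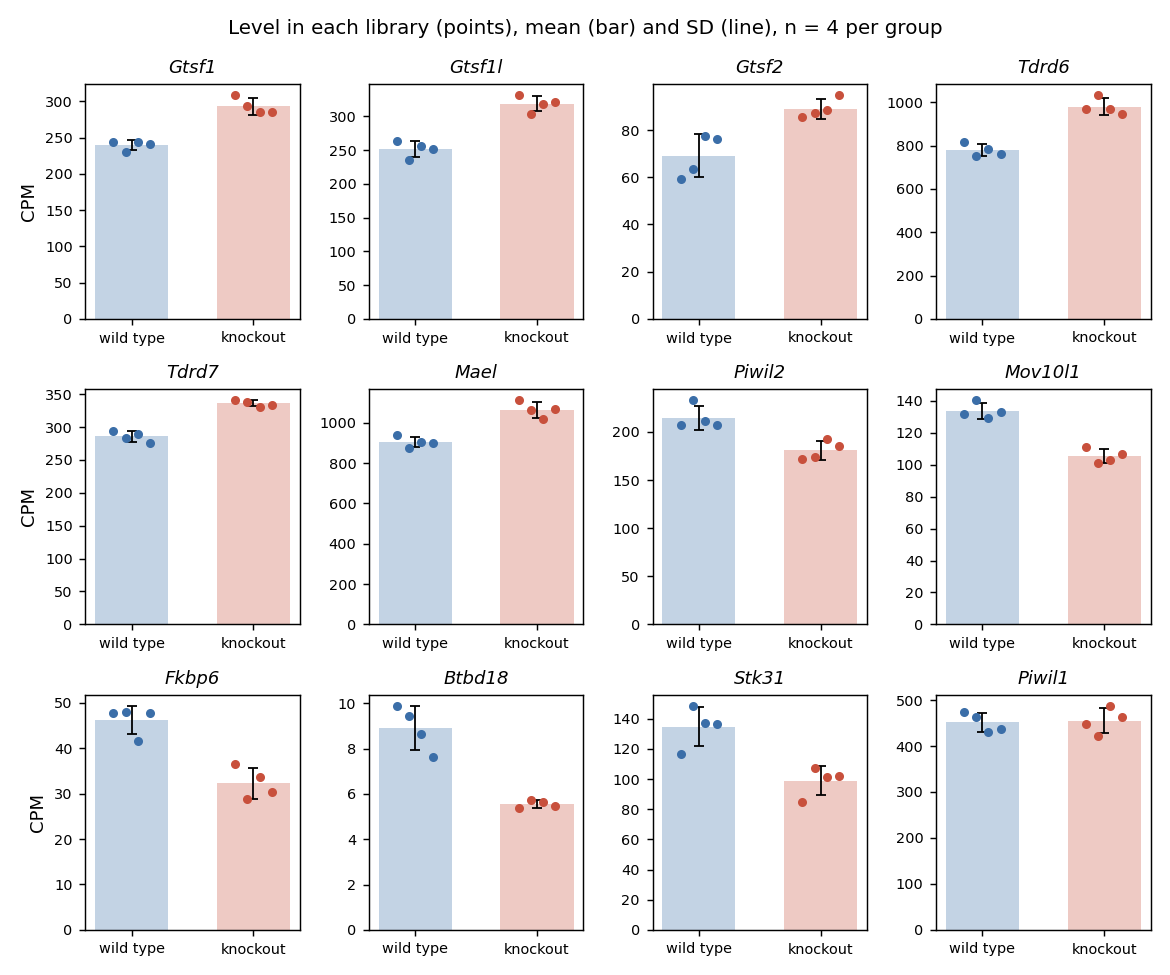
Level of 12 of the genes in CPM, with each library as a point, the group mean as a bar from 0 and the SD as a vertical line, 4 wild-type and 4 knockout libraries. The first 6 genes are higher in every knockout library, the next 5 are lower in every knockout library, and Piwil1 overlaps between the groups.

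Of the 9 Tudor domain genes, Tdrd6, Tdrd7 and Tdrd3 rose. Tdrd6 encodes a scaffold protein of the chromatoid body. It had 817, 753, 786 and 762 CPM in wild type and 972, 1035, 971 and 944 CPM in knockout. All knockout libraries were above all wild-type libraries, with a change of 0.33 on the log2 scale (SE 0.0492, adjusted p = 3.81e-05). Tdrd7, whose product is needed for chromatoid body structure, had 293, 284, 290.1 and 275 CPM against 341, 339, 331 and 334 CPM. Its groups were as clearly apart, with a change of 0.23 on the log2 scale (SE 0.0466, adjusted p = 0.000526). Tdrd3, a broadly expressed gene of RNA granules, was the called member nearest to the threshold. It had 38.3, 41.8, 41.3 and 38.2 CPM against 41.8, 50.7, 46.1 and 43.0 CPM, with a change of 0.19 on the log2 scale (SE 0.0726, adjusted p = 0.0394). Its highest wild-type and lowest knockout libraries were almost level, and 8 of 15 alternative settings ended the call. Among these were leaving out knockout replicate 2 or 3 (0.13 and 0.18 on the log2 scale) and wild-type replicate 1, 3 or 4 (0.16, 0.20 and 0.16).

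Stk31, Tdrd12 and Tdrd5 fell. Stk31 encodes a protein with a Tudor and a kinase domain. It had 117, 149, 137 and 136 CPM in wild type and 85.0, 107, 101 and 102 CPM in knockout, with a change of -0.45 on the log2 scale (SE 0.0782, adjusted p = 0.000166). Both groups had their lowest value in replicate 1, and the groups did not overlap. Tdrd12, which encodes a helicase for piRNA production, had 88.2, 89.0, 88.4 and 83.9 CPM against 69.1, 69.8, 75.9 and 82.5 CPM. Knockout replicate 4 lay close to wild type and the others well below, with a change of -0.23 on the log2 scale (SE 0.0636, adjusted p = 0.0055). Tdrd5, which encodes a protein needed for pachytene piRNAs and the chromatoid body, had 118, 120.5, 119.8 and 115 CPM against 105, 103, 107 and 114 CPM. The gap between the groups was small, with a change of -0.14 on the log2 scale (SE 0.0527, adjusted p = 0.0313). The call was lost in 6 of 15 settings, including those that left out knockout replicate 1, 2 or 3 (-0.13, -0.12 and -0.14) or wild-type replicate 3 (-0.14).

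The remaining Tudor genes did not pass. Tdrd1, the gene for a Tudor partner of MILI in the intermitochondrial cement, had 193 ± 7.16 CPM in wild type and 185 ± 11.6 CPM in knockout, with a change of -0.063 on the log2 scale (SE 0.0559, adjusted p = 0.356). Tdrd9, which encodes a helicase of transposon silencing, had 170.5, 163, 159.7 and 159.9 CPM against 176, 173, 176 and 176 CPM, with a change of 0.10 on the log2 scale (SE 0.0485, adjusted p = 0.0852). The knockout libraries of Tdrd9 lay narrowly above the wild-type ones, and with upper-quartile factors the gene was called higher (0.17), while by library totals its sign turned (-0.039, not called). Rnf17, whose product limits piRNA amplification, had 238 ± 21.2 CPM in wild type and 249.5 ± 27.4 CPM in knockout, with a change of 0.071 on the log2 scale (SE 0.078, adjusted p = 0.459). In both groups replicate 1 was the lowest library for Rnf17, at 209 and 209 CPM.

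Among the helicase and the other granule factors, Mael and Fkbp6 moved in opposite directions. Mael, the gene of the granule protein maelstrom, had 937, 877, 902 and 902 CPM in wild type and 1111, 1062, 1017 and 1067 CPM in knockout. Every knockout library was higher, with a change of 0.24 on the log2 scale (SE 0.0475, adjusted p = 0.000592). Fkbp6 encodes a co-chaperone that helps load PIWI proteins. It had 47.8, 47.9, 41.6 and 47.6 CPM against 36.5, 28.7, 33.6 and 30.3 CPM. The highest knockout library was below the lowest wild-type library, with a change of -0.52 on the log2 scale (SE 0.0812, adjusted p = 6.18e-05). Ddx4, which encodes the germ granule helicase VASA, had 577 ± 35.3 CPM in wild type and 600.3 ± 24.8 CPM in knockout, and its change of 0.057 on the log2 scale (SE 0.0543, adjusted p = 0.39) did not pass. Exd1, which encodes an RNA-binding adaptor of piRNA production, had 24.5 ± 0.667 CPM in wild type and 24.7 ± 1.09 CPM in knockout, with a change of 0.015 on the log2 scale (SE 0.0701, adjusted p = 0.873).

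Prmt5 and Wdr77 encode the enzyme and the cofactor that methylate arginines of PIWI proteins. Prmt5 had 39.4 ± 1.07 CPM in wild type and 35.3 ± 2.49 CPM in knockout, and its change of -0.16 on the log2 scale (SE 0.0684, adjusted p = 0.0621) did not pass, though it passed without knockout replicate 2 (-0.20). Wdr77, the uncalled member nearest to the threshold, had 18.2, 20.2, 23.3 and 23.8 CPM in wild type and 17.4, 18.6, 18.5 and 19.15 CPM in knockout. Its wild-type replicates 1 and 2 lay near the knockout values and replicates 3 and 4 above them, with a change of -0.22 on the log2 scale (SE 0.0919, adjusted p = 0.0563). It passed without wild-type replicate 1 (-0.29). In the annotation 31.5% of the exonic length of Wdr77 overlaps other genes, so its count is uncertain.

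The nuclear silencing genes were all at low levels in adult testis. Dnmt3l, which encodes a cofactor of DNA methyltransferases known for its part in fetal germ cells, had 7.93, 6.25, 9.19 and 10.1 CPM in wild type and 11.7, 11.4, 12.2 and 13.0 CPM in knockout. Knockout libraries were all higher and lay closer together than wild-type ones, with a change of 0.53 on the log2 scale (SE 0.13, adjusted p = 0.00271). Morc1, a gene of transposon repression in male germ cells, had 6.79, 6.65, 7.87 and 7.65 CPM against 5.69, 4.88, 5.82 and 6.64 CPM, with a change of -0.34 on the log2 scale (SE 0.128, adjusted p = 0.0365). The highest knockout library and the lowest wild-type library differed by little, and 8 of 15 settings ended the call. DESeq2 was one (-0.34), and leaving out knockout replicate 1, 2 or 3 (-0.33, -0.26 and -0.34) or wild-type replicate 3 or 4 (-0.30 and -0.31) did so too. Spocd1, whose product acts with MIWI2, had 7.03 ± 0.982 CPM in wild type and 8.23 ± 0.819 CPM in knockout, and its change of 0.23 on the log2 scale (SE 0.129, adjusted p = 0.147) did not pass. Dnmt3c, a methyltransferase gene of rodents, had 2.55 ± 0.753 CPM in wild type and 1.90 ± 0.489 CPM in knockout, with a change of -0.44 on the log2 scale (SE 0.235, adjusted p = 0.129). For Dnmt3c, 31.9% of the 31-base words occur in other genes, most of all Dnmt3b, so reads could have been split or dropped.

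Levels were also ranked per kb of exonic length (CPM per kb, from the GENCODE vM21 annotation), so that genes could be compared with each other. The length is that of all annotated exons of a gene merged, and can exceed that of the transcript made in testis. The order is therefore approximate, and the SDs do not include this uncertainty. In wild type Mael was highest at 522 ± 14.3 CPM per kb, followed by Gtsf1l at 307 ± 14.1, Ddx4 at 191 ± 11.7 and Gtsf1 at 172 ± 5.02. Tdrd6 (110.4 ± 4.04), Piwil1 (104 ± 4.74) and Gtsf2 (93.9 ± 12.4) came next, and these neighbours did not differ by more than the sum of their SDs. Tdrd7 was eighth at 72.2 ± 2.00. From Stk31 at 41.6 ± 4.06 to Tdrd9 at 30.2 ± 0.929 each of 8 genes lay within the sum of SDs of its neighbour. Piwil4 was lowest at 0.231 ± 0.0654, below Morc1 at 1.12 ± 0.0937 and Dnmt3c at 1.15 ± 0.339. In knockout Gtsf1 (211 ± 8.21) and Ddx4 (199 ± 8.23) lay within their SDs, and Gtsf2 (121 ± 5.65) stood above Piwil1 (104 ± 6.30) by more than their SDs. Of the 8 genes highest per kb in wild type, 6 were called higher in knockout and 0 lower. Of the other 25, 2 were higher and 11 lower. That grouping, with its cut at 8 genes, was made after the values were seen. Over all tested genes at any level, 26.2% were called higher and 27.4% lower. Genes of like level outside the set were not compared, so the split is not shown to be particular to the set.

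**Figure D3:**
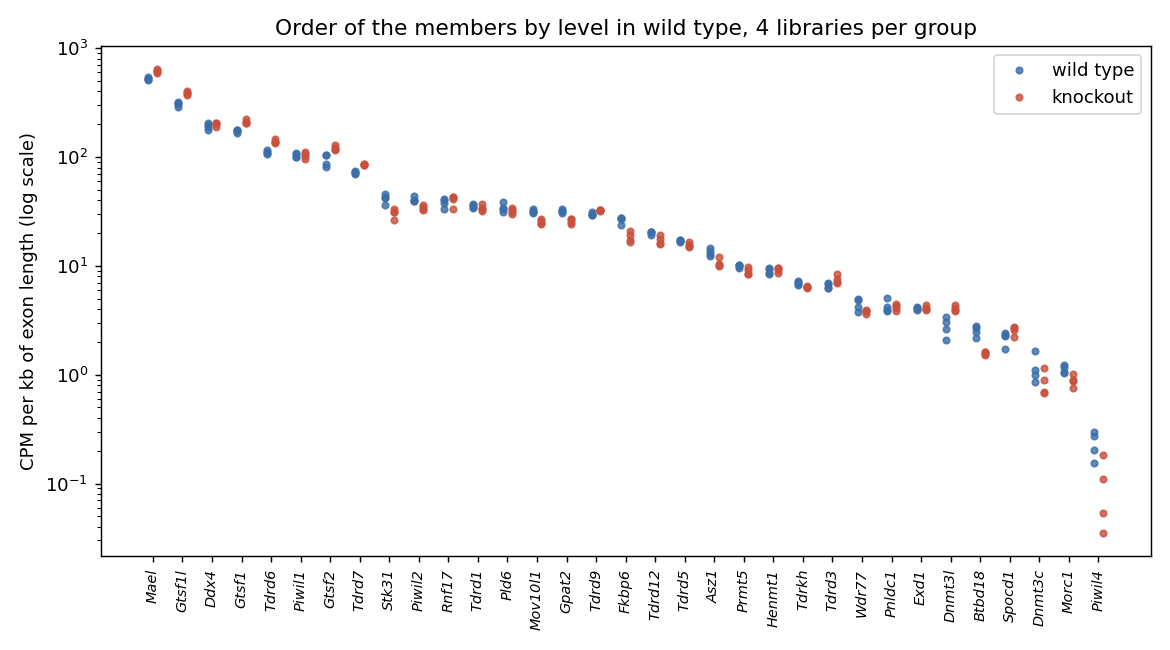
Level per kb of exonic length on a log axis for the 33 genes, in order of the wild-type mean, with 4 wild-type and 4 knockout libraries as points. Levels run from 522 for Mael to 0.231 for Piwil4 in wild type, and the knockout points lie above the wild-type points for 6 of the 8 highest genes.

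Ratios of 2 members within a library need no scaling between libraries. For 8 pairs, chosen after their values were seen, the raw counts of 1 gene were given per 100 counts of the other. The test was an exact permutation of the 8 libraries, two-sided, which cannot go below p = 0.0286 here. Piwil2 had 43.6, 50.2, 49.1 and 47.4 counts per 100 of Piwil1 in wild type and 38.2, 41.3, 39.5 and 40.1 in knockout. Tdrd6 per 100 counts of Tdrd1 stood at 411, 377, 416 and 411 against 523, 599, 484 and 522. Tdrd7 per 100 of Tdrd5 stood at 249.7, 236, 242 and 239 against 323, 329, 309 and 294. In these pairs, and for Fkbp6 per 100 of Ddx4 (8.04 ± 0.843 against 5.40 ± 0.807), the groups did not overlap (exact permutation p = 0.0286, adjusted p = 0.0571 over the 8 pairs, n = 4 per group). None passed after adjustment, but these pairs were already at the lowest p that the test can give. The adjusted p therefore cannot decide whether the ratios differ. As the pairs were chosen by their values, the p-values only describe how far the groups were apart. Mael per 100 of Ddx4 overlapped between the groups, at 157 ± 14.1 and 178 ± 12.7 (exact permutation p = 0.114). Within the GTSF group the proportions overlapped between genotypes: Gtsf1l per 100 of Gtsf1 was 105 ± 2.05 and 109 ± 4.17 (exact permutation p = 0.2). Gtsf2 per 100 of Gtsf1 was 28.8 ± 3.60 and 30.4 ± 2.39 (exact permutation p = 0.514). Pnldc1 per 100 of Henmt1 overlapped as well (exact permutation p = 0.714).

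**Figure D4:**
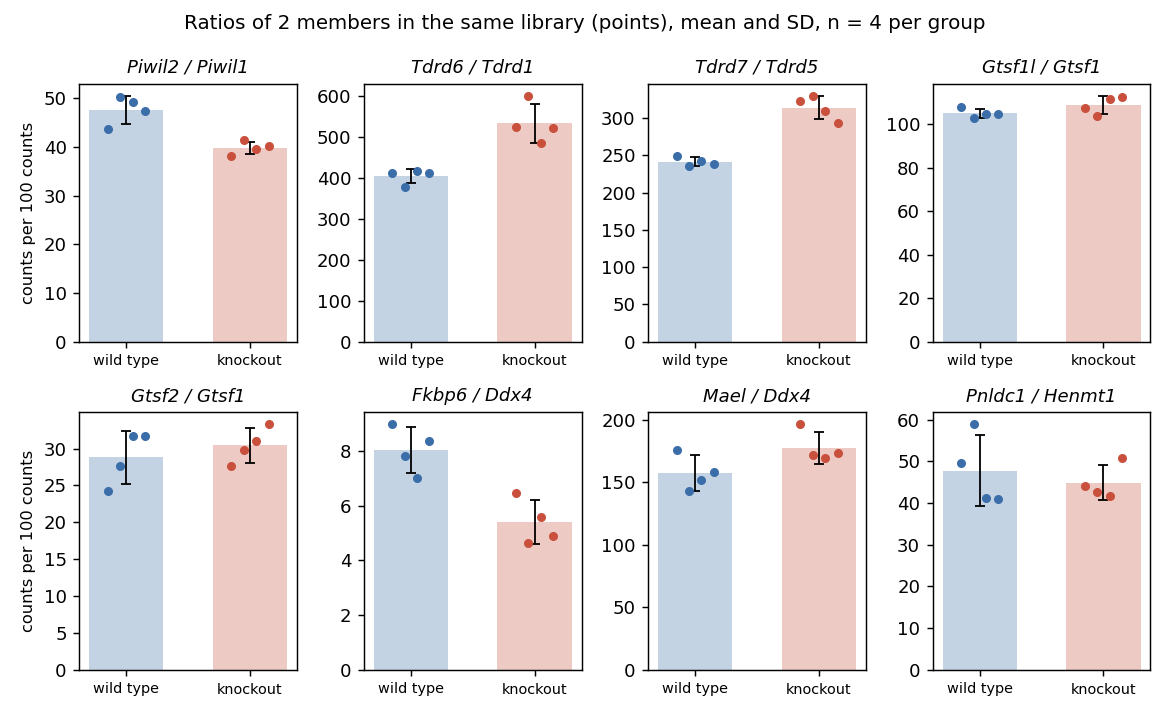
Raw counts of 1 gene per 100 counts of another in the same library for 8 pairs, with each library as a point, the mean as a bar from 0 and the SD as a line, 4 libraries per group. The groups are apart for Piwil2 over Piwil1, Tdrd6 over Tdrd1, Tdrd7 over Tdrd5 and Fkbp6 over Ddx4, and overlap for the other pairs.

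Further genes of the pathway were listed by known function, though with earlier results of these data known. Of 33 such genes 32 had a row and 31 were tested, of which 7 rose, 11 fell and 13 did not pass, with a median log2 fold change of -0.051. Over all tested genes 26.2% were higher, 27.4% lower and 53.5% either, and the share of this list called in either direction was near that background. By library totals 3 rose and 19 fell, where all tested genes split into 3848 higher and 8255 lower. Those with the smallest p among the rises were Kif17 (339 ± 26.8 CPM in wild type and 493 ± 23.6 CPM in knockout; log2 fold change 0.54), a motor protein gene of the chromatoid body, Akap1 (0.40), a mitochondrial anchoring protein gene, and Pabpc1 (0.28), a poly(A)-binding protein gene. Among the falls they were Prmt1 (41.5 ± 2.55 CPM in wild type and 25.7 ± 1.25 CPM in knockout; log2 fold change -0.69), an arginine methyltransferase gene, Dicer1 (-0.64), the gene of the microRNA-processing enzyme, and Snd1 (-0.68), which encodes a Tudor-containing nuclease. Of the transcription factors of pachytene precursors, 1 of 2 rose: Tcfl5, with a change of 0.18 on the log2 scale (SE 0.0504, adjusted p = 0.00643). Mybl1 had 81.4 ± 6.50 CPM in wild type and 75.3 ± 10.6 CPM in knockout and did not pass (adjusted p = 0.297). Of 6 partners in nuclear silencing and DNA methylation 3 fell and 0 rose, namely Dnmt3a (-0.50), Dnmt3b (-0.55) and Setdb1 (-0.26), named after their values were seen. For Pabpc1, Dnmt3b and Setdb1, 16.1%, 13.5% and 12.9% of the 31-base words of their transcripts also occur in transcripts of other genes. Their counts are therefore less certain.

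Markers of cell types moved in the same libraries. All 12 round spermatid markers rose (median log2 fold change 0.50), the most in Izumo1, the sperm receptor for egg fusion (0.85). In the annotation 21.9% of the exonic length of Izumo1 overlaps Rasip1, so its count is less certain. The sum of the 12 was 2213 to 2492 CPM in wild type and 3504 to 3611 in knockout. All 10 elongating spermatid markers rose (median 0.62), such as Akap4, of the sperm tail sheath (0.70), with sums of 14180 to 17460 and 22210 to 25440 CPM. Of 12 spermatogonial markers 9 fell, such as Uchl1 (-0.78), and 1 rose, and their sum was 245 to 272 CPM against 164 to 172. Spermatocyte markers went both ways, 2 of 11 higher and 5 lower, with sums of 4153 to 4284 and 4302 to 4763 CPM. Of 12 Sertoli cell markers 11 fell (median of the list -0.62), the most in Inha, the inhibin alpha gene (-0.97). The sum of the 12 was 1944 to 2183 CPM in wild type and 1291 to 1461 in knockout. All 8 Leydig cell markers fell, such as Cyp17a1, of androgen synthesis (-1.16), with sums of 1631 to 1918 and 891 to 976 CPM. Myoid markers summed to 90.5 to 113 and 60.0 to 76.0 CPM (4 of 5 lower), and macrophage markers to 90.2 to 106 and 63.2 to 75.2 CPM (4 of 6 lower). No marker was at 0 in all libraries. The members that rose did so by 0.19 to 0.53 on the log2 scale, and every round spermatid marker by 0.32 to 0.85.

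**Figure D5:**
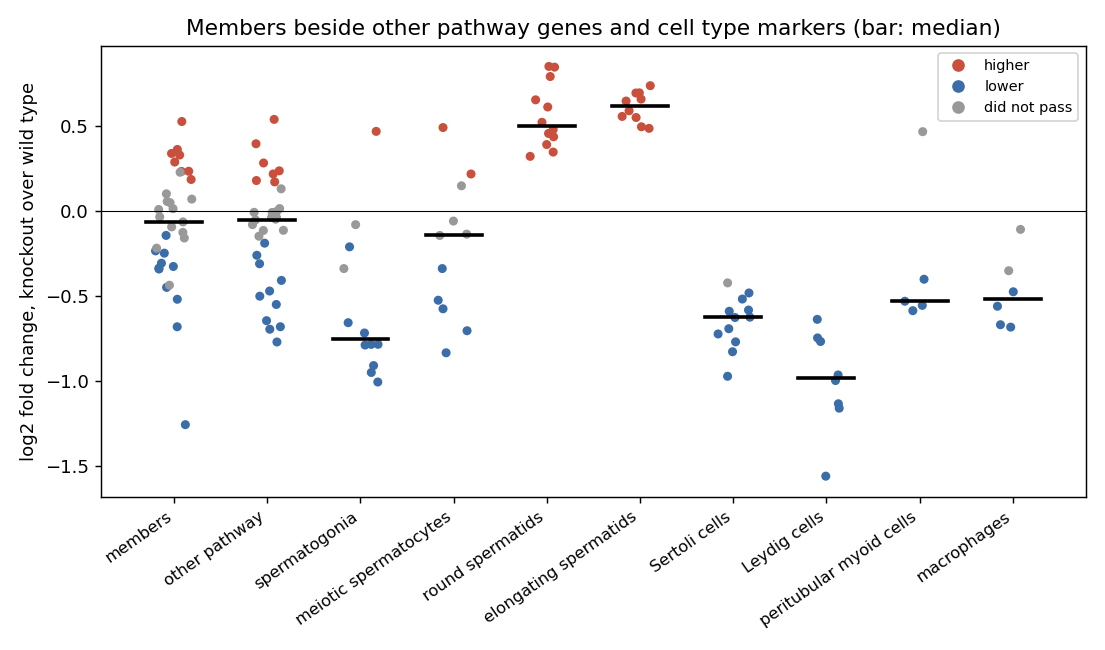
Log2 fold change, knockout over wild type, of each tested gene (points, coloured by call) in the set of 33, the other pathway genes and 8 lists of cell type markers, with the median of each list as a bar. The set straddles 0, with a median of -0.063, while spermatid markers lie above 0 and Sertoli and Leydig cell markers below.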

How the data were processed

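RNA of adult testis was sequenced in 4 wild-type and 4 knockout libraries, with 18036708 to 24415587 counts each. The authors deposited unnormalized read counts for each Ensembl gene. The submitters' processing notes name FastQC, Trimmomatic, featureCounts, STAR and DESeq2, and build mm39. Versions, the strand setting and the handling of reads that map to several places were not stated. GENCODE vM21 (GRCm38) gave names, exonic lengths and overlaps, and no coordinates of the counts' build were used.

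Counts were tested with edgeR 4.0.16 in R 4.3.3 (quasi-likelihood, genotype only, filterByExpr with minimum count 10 and minimum total 15, TMM), adjusted by Benjamini-Hochberg over all tested genes. The SE is the log2 fold change over the root of F. The code was tested on simulated data in which few genes changed, which does not test the scaling where many genes change. Alternatives were other scalings, DESeq2 1.42.0, no filter, a replicate block and leaving out libraries. All 33 members are reported. Called members without overlap and those nearest the threshold have values per library, as do a few others. Of the other pathway genes the 3 with the smallest p per direction are named, and those named beyond these were chosen after their values were seen. The genes, lists and pairs were chosen with earlier results of these data known, and the motifs and printed promoters after the values were seen. Libraries of a group correlated at r of 0.9852 to 0.9918, and none agreed within sampling noise (chi-square per degree of freedom 4.61 to 9.58).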

Additional observations from a re-analysis of the deposited data

Results flagged for a closer look

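In 3 of 66 groups of 4 libraries, 1 library lay far from the other 3, where chance gives about 1 in 20. Asz1 was at 33.8 CPM in knockout replicate 4 against 28.4 to 29.3 in the other knockout libraries, and its log2 fold change without that library was -0.38. Tdrd12 was at 83.9 CPM in wild-type replicate 4 against 88.2 to 89.0 in the other wild-type libraries, and without it the value was -0.26. Fkbp6 was at 41.6 CPM in wild-type replicate 3 against 47.7 to 47.9 in the others, and without it the value was -0.57. All 3 genes kept the call of lower in each of the 15 alternatives.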

How the results depend on the processing

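Of 19 called members, 14 kept their call in all 15 alternatives, and Tdrd3, Tdrd5, Tdrd7, Mael and Morc1 did not. With library totals in place of TMM, 5 members were called higher and 17 lower, and 3 other pathway genes higher and 19 lower. All genes then split into 3848 higher and 8255 lower (31.8% of calls higher, against 48.9%), and with upper-quartile factors into 6773 and 4986 (57.6%), with 9 members higher and 9 lower. Leaving out each library in turn gave 7 to 8 members higher and 9 to 12 lower. Without both libraries numbered 1, a setting chosen after the data were seen, 7 were higher and 12 lower. The sign turned in 17 cases over 8 members, none of them called. With library totals these were Piwil1 (-0.13), Henmt1 (-0.092), Tdrd9 (-0.039), Rnf17 (-0.072), Ddx4 (-0.086) and Exd1 (-0.13), and with upper-quartile factors Pnldc1 (0.039) and Tdrd1 (0.0085). Henmt1 turned to -0.0095 without both libraries numbered 1. Leaving out 1 library moved Piwil1 from -0.023 to 0.046, Pnldc1 from -0.081 to 0.057 and Exd1 from -0.014 to 0.033. The cause was not tested. Deviations of same-numbered libraries correlated at 0.0798, 0.0225, 0.0605 and 0.002, and those of differently numbered libraries at -0.0657 to 0.0406. All were under the threshold of 0.1 set for pairing, so the main fit used genotype only. Values this low cannot exclude a weak pairing, and the labels do not say whether the numbers pair the libraries. With the replicate block 8 members were higher and 12 lower, Wdr77 being the added call. Depth limits Piwil4 most, at 112 counts in wild type and 41 in knockout.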
